A study of Mus musculus with 4 samples.

Results

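A set of 9 genes that build or seal the myelin sheath was followed probe by probe in the cerebral cortex of mice labelled Ndrg2-/- and of wild-type mice. The genes are Mbp, Mobp, Mog, Mag, Cnp, Ermn, Mal, Opalin and Cldn11. A probe belonged to the set when the transcript accession printed for it in the array files mapped to one of these genes in the RefSeq gene table, which gave 14 of 39429 probes. Mbp and Mobp had 3 probes each, Ermn had 2 and the remaining 6 genes had 1 probe each. The genes were chosen by their measured log2 ratios on these same arrays, in particular a high ratio of an Mbp probe and disagreement between the probes of Mbp and of Ermn. Their ratios between genotypes are therefore given as a description, and no p-value is given for them.

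All mice were adult males aged 3 months on the C57BL/6N background. Each of 4 dual-colour Agilent arrays carried 1 cortical RNA sample labelled Ndrg2-/-, dyed with Cy5, and 1 wild-type sample, dyed with Cy3, so there were 4 samples of each genotype and 4 within-array ratios. Ndrg2 encodes an N-myc downstream regulated protein that is made mostly by astrocytes in the brain. The deleted stretch of Ndrg2 and the number of mice behind each sample are not given in the labels, so the spread between samples may be partly technical. Ratios are log2 of the labelled Ndrg2-/- sample over its wild-type partner, means are given ± SD of 4 arrays, and a level is the normalized log2 signal of a probe in 1 sample.

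No array exchanged the dyes, so genotype and dye cannot be told apart for any probe. For Ndrg2 itself (NM_013864) the log2 ratio was 0.11, 0.37, 0.40 and 0.38, so its signal was higher in the samples labelled Ndrg2-/-. Its mean was 0.32 ± 0.14 (adjusted p 0.0173 from limma), and whether the probe reads the deleted stretch is not given. Which genotype is which therefore rests on the sample labels alone. All 4 arrays lay on 1 slide and were scanned together. The median spot signal per array ran from 283 to 336 in red and from 94 to 122 in green. All 14 myelin probes were well above background in both channels on all 4 arrays, and none was saturated. All 8 neuron markers, all 7 astrocyte markers and all 10 oligodendrocyte precursor markers listed for the tissue were also measured above background. In bulk RNA, fewer cells of a type and less RNA per cell cannot be told apart.

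Oligodendrocytes wrap axons of the central nervous system in stacked membrane. Mbp (myelin basic protein) and Mobp act on the cytoplasmic faces of compact myelin, where they hold neighbouring membranes together. Mag faces the axon, Mog lies on the outermost surface, Cnp keeps cytoplasmic channels through the sheath open, and Cldn11 forms the tight junctions that seal it. Mal is a proteolipid that sorts membrane to myelin, Opalin a transmembrane glycoprotein of oligodendrocytes, and Ermn (ermin) an actin-binding protein of late oligodendrocyte maturation. None of these genes lies on the chromosome that carries Ndrg2.

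As a group the myelin genes had a small median ratio between the genotypes, and 1 Mbp probe had a far higher ratio than the rest. The median log2 ratio over the 14 probes was 0.10, against 0.01 over all 27652 probes tested. The probe means ranged from -0.29 to 0.77, with 9 above 0 and 5 below. Median centring without loess put the myelin median at 0.42, against 0.22 over all probes. There 12 myelin probes passed as higher and 0 as lower, beside 16452 and 5495 probes over the whole array. The value of 0.22 is not matched for signal, and 11 of the 14 myelin probes were brighter than the median probe. Bright genes outside the set also shifted up (Aldoc from 0.24 to 0.895, Snap25 from 0.20 to 0.80), while the dim Cfap221 went from 0.02 to -0.27. Other dimmer genes went either way: Lum from 0.59 to 0.77, Pecam1 from 0.18 to 0.28 and Antxrl from 0.14 to -0.094. Signal classes were not compared under that setting. Nothing is therefore read from the 12 passes. In the limma fit over all tested probes (Benjamini-Hochberg adjusted p under 0.05), 2 myelin probes passed as higher, both of Mbp, 1 passed as lower, of Ermn, and 11 did not pass. Over the whole array 7.41% of probes passed as higher and 5.54% as lower, 13.0% in all, and the ratios had chosen the genes, so nothing is read from the 3 of 14 probes. All but 1 of the probes (13 of 14) stayed within 1.5 fold, the size named in the study's design text. The ratio was above 0 on all 4 arrays for 2 myelin probes, beside 21.4% of all tested probes, and below 0 on all 4 for another 2, beside 18.0%. The levels of the 4 Ndrg2-/- samples lay above all 4 wild-type levels for 2 probes and below them for none, beside 7.66% and 5.85% of all tested probes.

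**Figure D1:**
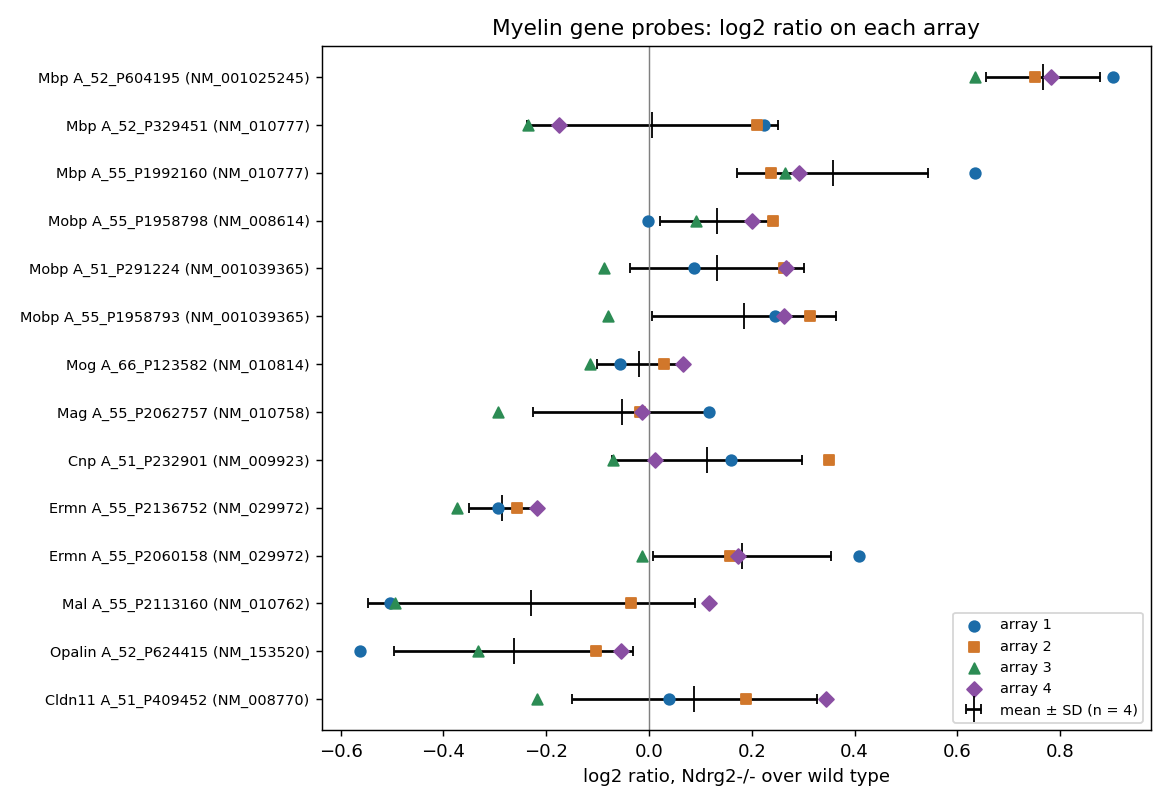
Log2 ratio of Ndrg2-/- over wild type (x axis) for each of the 14 myelin probes (rows, with transcript accession). Symbols are the 4 arrays, and the bar is the mean ± SD over them. The Mbp probe A_52_P604195 lies between 0.63 and 0.90 on all arrays, while the bright Ermn probe A_55_P2136752 lies below 0 on all 4 and the other Ermn probe has a mean of 0.18.

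The 3 probes for Mbp disagreed. RefSeq lists 8 curated transcripts for this gene, and the accession attached to each probe is the only information here on which of them it reads. Probe A_52_P604195, annotated to NM_001025245, had levels of 13.09, 13.01, 12.76 and 12.84 in the samples labelled Ndrg2-/-, against 12.18, 12.26, 12.12 and 12.06 in the wild-type samples. Every Ndrg2-/- sample was above every wild-type sample. Its ratios were 0.90, 0.75, 0.63 and 0.78 on arrays 1 to 4, with a mean of 0.77 ± 0.11, or 1.70 fold. Over all 11 alternative settings and left-out arrays its mean stayed between 0.72 and 1.17. The highest value came from median centring without loess, which raised the median of all probes to 0.22. The probe passed in each, but its high ratio had chosen the genes, so nothing is read from these passes. When probes were divided into 10 equal classes of mean signal, 9.69% of its class passed as higher.

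Probe A_55_P1992160, annotated to NM_010777, had the smallest signal rank of the Mbp probes. It had levels of 8.68, 8.36, 8.53 and 8.32 in the samples labelled Ndrg2-/-, against 8.05, 8.13, 8.27 and 8.03 in the wild-type samples. The genotypes did not overlap, although the lowest Ndrg2-/- level was close to the highest wild-type level. The ratios were 0.63, 0.24, 0.27 and 0.29, with array 1 well above the others, and the mean was 0.36 ± 0.19. It no longer passed without replicate 2 (0.40), without replicate 3 (0.39) or with the scanner software's processed signals (0.44). In its class of mean signal 7.05% of probes passed as higher.

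The third probe, A_52_P329451, carries the same accession NM_010777 and showed no common direction. Levels were 11.42, 11.25, 11.27 and 11.00 in the samples labelled Ndrg2-/-, against 11.20, 11.04, 11.50 and 11.18 in the wild-type samples, and the 2 groups overlapped throughout. The ratio was above 0 on arrays 1 and 2 (0.22 and 0.21) and below 0 on arrays 3 and 4 (-0.23 and -0.17), with a mean of 0.01 ± 0.24. The probes that share an accession thus differed from each other by 0.41, 0.03, 0.50 and 0.47 on arrays 1 to 4.

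Within each array, A_52_P604195 exceeded A_52_P329451 by 0.68, 0.54, 0.87 and 0.96, a mean difference of log2 ratios of 0.76 ± 0.19. It exceeded A_55_P1992160 by 0.27, 0.51, 0.37 and 0.49 (0.41 ± 0.11). Both differences had the same sign on all 4 arrays. The gap between the highest and lowest Mbp probe was 0.76, beside a median gap of 0.16 over the 710 genes with at least 3 tested probes. Disagreement between Mbp probes was among the values that chose the genes, so nothing is read from that difference. The Mbp gap lay between 0.70 and 0.83 over the alternative settings and left-out arrays.

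**Figure D2:**
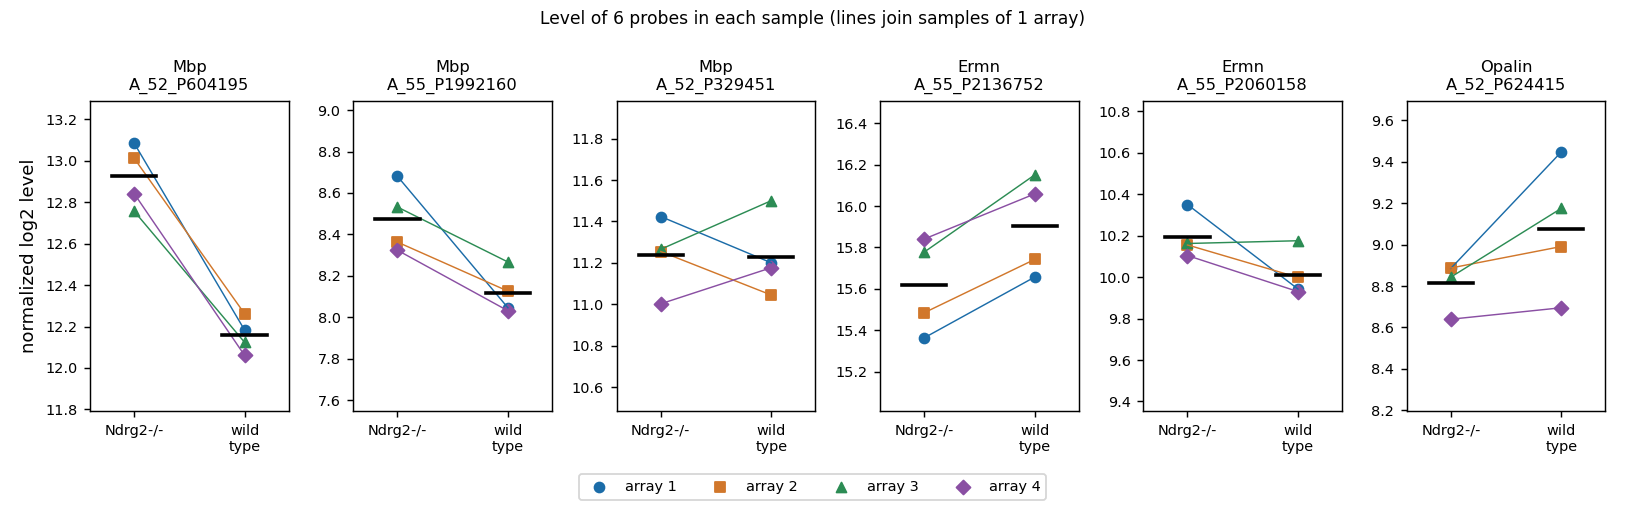
Normalized log2 level (y axis, the same span of 1.5 in each panel) of 6 probes in the samples labelled Ndrg2-/- (left) and wild type (right). Lines join the samples of 1 array and black bars are means of 4. For Mbp A_52_P604195 and A_55_P1992160 all Ndrg2-/- samples lie above all wild-type samples, and for Mbp A_52_P329451 the 2 groups lie at the same level.

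The 2 Ermn probes carry a single accession, NM_029972, the only curated transcript of the gene, and their mean ratios had opposite signs, as in 42.6% of genes with at least 2 tested probes. On array 3 both were below 0. Probe A_55_P2136752 had levels of 15.36, 15.48, 15.78 and 15.84 in the samples labelled Ndrg2-/-, against 15.66, 15.74, 16.15 and 16.06 in the wild-type samples. Each Ndrg2-/- sample was below the wild-type sample on its own array, but the groups overlapped, because both genotypes were higher on arrays 3 and 4. The ratios were -0.29, -0.26, -0.37 and -0.22, with a mean of -0.29 ± 0.07. This probe was among the 1.30% with the highest mean signal on the array, and in its class of signal 10.7% of probes passed as lower. Its pass was lost without replicate 2 (-0.29) and when the pairing by array was dropped, and median centring without loess gave 0.29. The median of all probes was then 0.22, but that median is not matched for signal. Other genes of the same signal class also shifted up there: Sox5 from -0.27 to 0.32, Snap25 from 0.20 to 0.80 and Mal from -0.23 to 0.23. The class as a whole was not compared under that setting.

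Probe A_55_P2060158 of Ermn had levels of 10.35, 10.16, 10.16 and 10.10 in the samples labelled Ndrg2-/-, against 9.94, 10.00, 10.18 and 9.93 in the wild-type samples. Only the wild-type sample of array 3 reached the Ndrg2-/- range. The ratios were 0.41, 0.16, -0.01 and 0.17, with a mean of 0.18 ± 0.17 that did not pass. The 2 probes differed by 0.70, 0.41, 0.36 and 0.39 on arrays 1 to 4, or 0.47 ± 0.16, in the same direction each time. Over the 4146 genes with at least 2 tested probes the median gap was 0.10, and as for Mbp the disagreement had chosen the gene, so nothing is read from it. The gap narrowed to 0.22 under median centring without loess, where both Ermn probes were above 0.

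The 3 probes for Mobp gave nearly equal ratios. Probe A_55_P1958798 (NM_008614) had ratios of 0.00, 0.24, 0.09 and 0.20, with a mean of 0.13 ± 0.11. A_51_P291224 and A_55_P1958793, both annotated to NM_001039365, had ratios of 0.09, 0.26, -0.09 and 0.27 (0.13 ± 0.17) and of 0.25, 0.31, -0.08 and 0.26 (0.19 ± 0.18). The gap between the highest and lowest mean was 0.05, and 91.1% of genes with at least 3 probes had a gap as wide or wider. Levels of A_55_P1958798 were 12.64, 12.48, 12.37 and 12.07 in the samples labelled Ndrg2-/-, against 12.64, 12.24, 12.28 and 11.87 in the wild-type samples. For A_51_P291224 they were 10.63, 10.68, 10.50 and 10.33 in Ndrg2-/- and 10.54, 10.41, 10.59 and 10.06 in wild type. For A_55_P1958793 they were 8.05, 7.86, 7.63 and 7.68 in Ndrg2-/- and 7.81, 7.54, 7.71 and 7.41 in wild type. None of the 3 Mobp probes passed, and levels of the 2 genotypes overlapped for each. The third of these probes passed as higher without replicate 3 (0.27), and all of them under median centring (0.22 to 0.53).

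The membrane receptors and the enzyme of the sheath did not separate by genotype. Mog (NM_010814) had ratios of -0.06, 0.03, -0.12 and 0.07, with the smallest SD among genes measured by a single probe (-0.02 ± 0.08). Its levels were 9.61, 9.56, 9.44 and 9.64 in the samples labelled Ndrg2-/-, against 9.67, 9.53, 9.55 and 9.57 in the wild-type samples, all close together. Mag (NM_010758) had ratios of 0.12, -0.02, -0.29 and -0.01 (-0.05 ± 0.17), and it was below 0 on 3 of 4 arrays. Mag levels were 13.18, 13.16, 13.09 and 12.81 in Ndrg2-/- samples and 13.07, 13.18, 13.39 and 12.83 in wild-type samples, where the sample of array 3 was the highest of all. Cnp (NM_009923) had ratios of 0.16, 0.35, -0.07 and 0.01 (0.11 ± 0.18). Cnp levels were 12.33, 12.30, 12.22 and 12.04 in Ndrg2-/- samples and 12.17, 11.95, 12.29 and 12.03 in wild-type samples, with overlap. For Mag and Mog the mean turned positive without replicate 3 (0.03 and 0.01) and under median centring (0.37 and 0.27).

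Opalin and Mal were lower on average in the samples labelled Ndrg2-/-, without passing. Opalin (NM_153520) had levels of 8.88, 8.89, 8.84 and 8.64 in those samples, against 9.45, 8.99, 9.17 and 8.70 in the wild-type samples. Its ratios were -0.56, -0.10, -0.33 and -0.06, below 0 on all 4 arrays. The mean was -0.26 ± 0.23 (-0.0296 under median centring, and -0.16 without replicate 1). The wild-type samples spread over a wider range than the Ndrg2-/- samples, whose first 3 members were nearly equal.

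Mal (NM_010762) had levels of 13.66, 13.66, 13.55 and 13.36 in the samples labelled Ndrg2-/-, against 14.17, 13.69, 14.04 and 13.25 in the wild-type samples. It was about equal on arrays 2 and 4 (-0.03 and 0.12) and lower on arrays 1 and 3 (-0.50 and -0.49), with a mean of -0.23 ± 0.32 (0.23 under median centring). Without replicate 1 its mean was -0.14, and without replicate 3 it was also -0.14. Cldn11 (NM_008770), the tight junction gene, had ratios of 0.04, 0.19, -0.22 and 0.34 (0.09 ± 0.24). Its levels were 12.51, 12.48, 12.34 and 12.36 in Ndrg2-/- samples and 12.47, 12.29, 12.56 and 12.01 in wild-type samples, which held both the highest and the lowest value. For Mal and Cldn11 the SD over arrays was larger than the mean.

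Array 3 stood apart for these genes. On it 11 of the 14 probes had a ratio below 0 and their median was -0.10, while the medians on arrays 1, 2 and 4 were 0.10, 0.20 and 0.15. The lowest of the 4 ratios fell on array 3 for 10 of the 14 probes, against 21.1% of all tested probes. Without array 3 the median myelin ratio was 0.16, and with each other array left out it lay between 0.04 and 0.10.

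The levels show which samples carried this. Each probe's level was set against the mean of its own genotype, so that neither genotype nor dye enters. The median deviation of the 14 probes was 0.11, 0.07, -0.02 and -0.16 in Ndrg2-/- samples 1 to 4, and 0.07, -0.05, 0.17 and -0.15 in wild-type samples 1 to 4. Ndrg2-/- sample 1 was above its group mean for 13 of 14 probes and wild-type sample 3 for 12, while Ndrg2-/- sample 4 was below it for 12 and wild-type sample 4 for 13. The wild-type sample of array 3 was thus high in myelin transcripts while its Ndrg2-/- partner was close to its group mean. Samples numbered 4 share an array, so a cause on that array and a low content in both samples cannot be told apart.

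Myelin levels had a larger median SD between samples of 1 genotype than all tested probes had. The median SD of the 14 probes was 0.15 over the Ndrg2-/- samples and 0.21 over the wild-type samples, against 0.09 in each genotype over all tested probes. The value of 0.09 is not matched for signal, and 11 of the 14 myelin probes were brighter than the median probe. The wild-type samples spread more than the Ndrg2-/- samples for these genes; that difference was not tested.

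**Figure D3:**
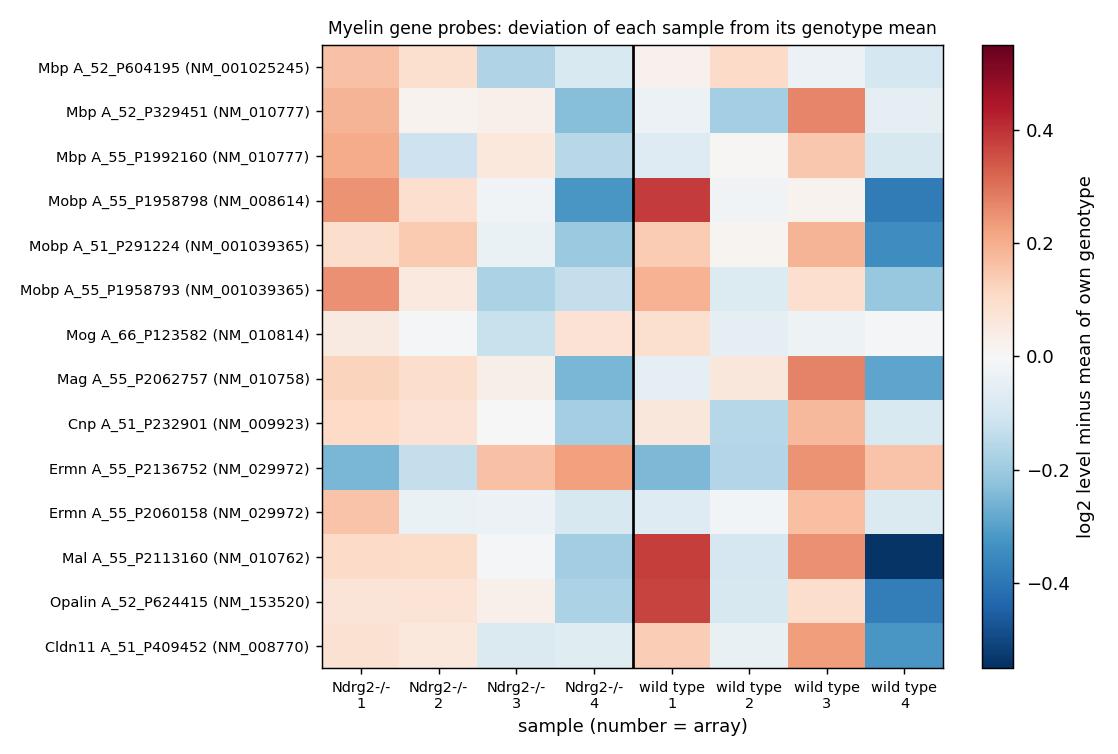
Log2 level of each myelin probe (rows) minus the mean of its own genotype, in the 8 samples (columns; the number is the array). Red is above and blue below the genotype mean. Ndrg2-/- sample 1 and wild-type sample 3 are high for most probes and both samples of array 4 are low, with the Ermn probe A_55_P2136752 running the other way.

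Most of the myelin probes varied together across the 8 samples, and 3 probes did so less closely. Pearson's r of each probe with the mean of the 13 others, over the 8 samples centred within genotype, was above 0.5 for 11 probes and above 0.8 for 8 of them. These values are descriptions over samples that share arrays, and probes of a gene share a target. The closest were Mobp A_51_P291224 (0.93), Cldn11 (0.93) and Mal (0.90). Opalin was at 0.81, Mag at 0.82 and Cnp at 0.84.

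The 3 with an r of 0.5 or less were 1 probe each of Mbp, Ermn and Mog. Mbp A_52_P604195 had an r of 0.43, lower than Mbp A_52_P329451 (0.70) and Mbp A_55_P1992160 (0.59). Ermn A_55_P2136752 had an r of -0.50, while the other Ermn probe had 0.70. Mog had an r of 0.08. With 1 array left out, between 8 and 12 probes had an r above 0.5, the fewest without array 4, where Mbp A_52_P604195 was at 0.07 and Mog at 0.59. This Mbp probe was at 0.25 without array 1, 0.58 without array 2 and 0.77 without array 3, so its place among the lower values rests on which arrays are used. The Ermn probe A_55_P2136752 stayed below 0 each time, between -0.97 and -0.14.

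**Figure D4:**
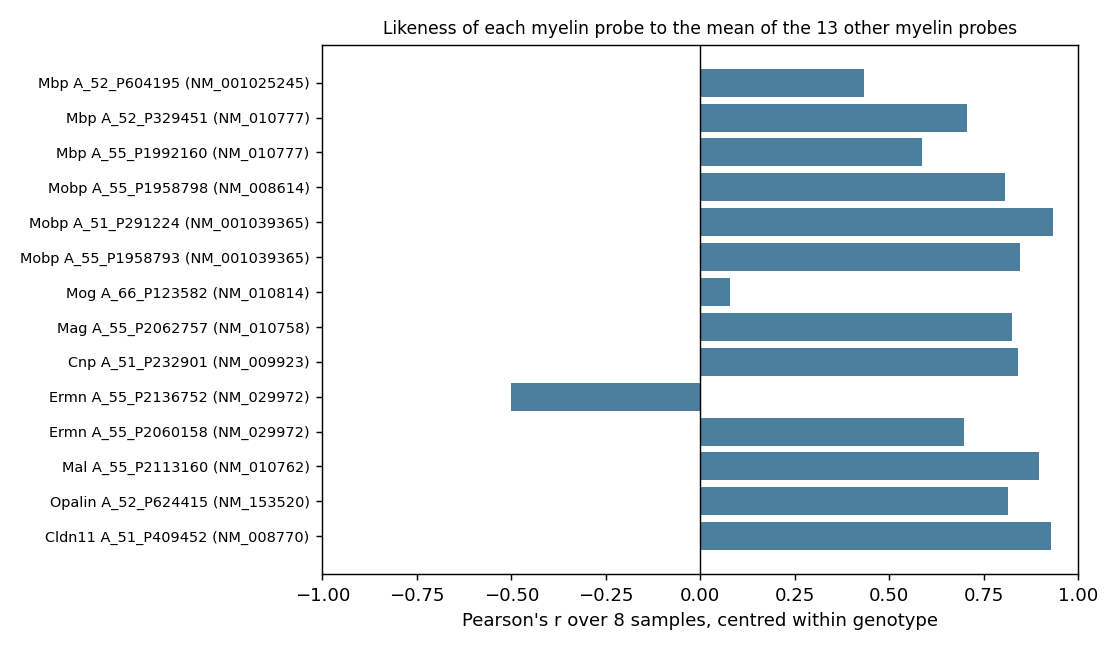
Pearson's r (x axis) of each myelin probe with the mean of the 13 other probes over 8 samples, each centred within genotype. Of 14 probes, 11 exceed 0.5, and the lowest are Mbp A_52_P604195 (0.43), Mog (0.08) and Ermn A_55_P2136752 (-0.50).

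Many other genes of mature oligodendrocytes had levels that followed the same course over the samples. Against the mean of the 14 myelin probes, r exceeded 0.5 for 22.4% of all 15380 genes ranked. It did so for 13 of 19 other myelin membrane and junction genes and 7 of 8 genes of myelin lipid synthesis. The highest were the gap junction gene Gjb1 (0.96), ranked 5 of all genes, and the aspartoacylase gene Aspa (0.95), ranked 11. The lowest of the membrane and junction genes were Cntn2 (-0.84) and Nfasc (-0.77). The master regulator Sox10 was at 0.91, but the median over the list of regulators was 0.15. Olig1 was at 0.23, and the lowest regulators were Gpr17 and Sox5 (both -0.54). For the other lists, r exceeded 0.5 for 7 of 18 oligodendrocyte cytoskeletal, signalling and carrier genes, 3 of 18 transcription factors and regulators and 2 of 10 precursor markers. It did so for 1 of 8 neuron, 1 of 7 astrocyte, 1 of 6 microglia, 2 of 6 striatum and 1 of 3 thalamus markers, and for none of 5 endothelial or 6 meningeal markers.

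Outside all lists, the genes with the highest r were Cfap221 (0.98), a cilium-associated gene, Adamts4 (0.97), which encodes a secreted proteoglycan-cleaving protease, Prima1 (0.97), the membrane anchor of acetylcholinesterase, Gas1 (0.97), a Hedgehog co-receptor, and Antxrl (0.96). Cfap221 and Antxrl were dim and moved little: their levels ran only from 6.66 to 6.79 and from 6.75 to 7.01 over the 8 samples. Only Gas1 also passed between genotypes, with a log2 ratio of 0.21 ± 0.09 (adjusted p 0.0275 from limma). Adamts4 levels were 9.02, 9.02, 8.85 and 8.76 in the samples labelled Ndrg2-/-, against 9.18, 9.02, 9.22 and 8.73 in the wild-type samples. Its lowest wild-type sample was that of array 4 and its highest that of array 3. The gene was chosen by its r over these same samples, so nothing is read from that likeness.

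Since most myelin genes varied together, the stretches just before their starts are shown for those that hold the core of the SOX motif, the family to which the oligodendrocyte regulator Sox10 belongs. Windows of 250 bases upstream of the start came from RefSeq (GRCm38.p6) and matched 8 of the genes in 10 windows, 3 of them for Mag. The letters ACAAAG were searched on both strands (reverse CTTTGT) and are in capitals below.
Mobp, chr9:120149492-120149741, plus strand: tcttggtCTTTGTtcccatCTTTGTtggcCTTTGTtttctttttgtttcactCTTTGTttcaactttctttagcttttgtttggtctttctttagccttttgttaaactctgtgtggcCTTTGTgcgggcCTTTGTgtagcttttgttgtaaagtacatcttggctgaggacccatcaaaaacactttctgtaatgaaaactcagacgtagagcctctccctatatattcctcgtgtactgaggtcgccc
Mag, chr7:30914923-30915172, minus strand: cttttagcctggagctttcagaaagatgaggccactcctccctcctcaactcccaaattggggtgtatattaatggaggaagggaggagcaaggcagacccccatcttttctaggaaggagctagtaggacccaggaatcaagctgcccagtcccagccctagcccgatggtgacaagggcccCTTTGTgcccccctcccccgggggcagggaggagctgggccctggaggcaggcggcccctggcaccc
Cnp, chr11:100574689-100574938, plus strand: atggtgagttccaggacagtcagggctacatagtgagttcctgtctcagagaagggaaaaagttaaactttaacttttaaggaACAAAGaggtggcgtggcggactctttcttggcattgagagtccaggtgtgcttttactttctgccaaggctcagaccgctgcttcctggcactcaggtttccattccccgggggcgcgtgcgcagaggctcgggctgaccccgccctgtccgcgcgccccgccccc
Opalin, chr19:41077114-41077363, minus strand: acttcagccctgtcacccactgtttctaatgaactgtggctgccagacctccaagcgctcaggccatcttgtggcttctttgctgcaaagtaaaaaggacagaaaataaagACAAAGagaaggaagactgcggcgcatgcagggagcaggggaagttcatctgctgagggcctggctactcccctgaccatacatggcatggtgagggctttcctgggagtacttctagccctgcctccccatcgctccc

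The motif was in 5 of the 10 windows, from 4 of the 8 genes. There were 6 copies for Mobp and 1 for Cnp and Opalin, and 2 overlapping windows for Mag held the same copy. Of all 32851 such windows, 16.5% hold it, and the difference was not tested. Mog, Ermn, Mal and Cldn11 had no match, although Mal and Cldn11 varied with the other genes and Mog did not. The TATA box letters TATAAA were in none of the 10 windows and in 12.4% of all windows. A match describes letters and not binding.

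Few other oligodendrocyte genes passed between genotypes. Of 73 tested genes on the 5 lists of myelin, lipid, cytoskeletal, regulatory and precursor genes, 2 rose, 3 fell and 68 did not pass, with a median log2 ratio of 0.02. Over all 15748 genes tested by their brightest probe, 9.12% passed as higher and 5.84% as lower, 15.0% in all, with a median of 0.01. Each of the 5 calls was lost without replicate 1 and without replicate 2.

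Among 19 other myelin membrane genes, 1 fell and none rose. Tmem125, which encodes a multi-pass membrane protein, had ratios of -0.53, -0.18, -0.37 and -0.10 (-0.29 ± 0.19, adjusted p 0.0391 from limma). Under median centring it was at -0.00976 and did not pass. Of 8 genes of myelin lipid synthesis, the very long chain fatty acid elongase gene Elovl1 rose (0.22 ± 0.14, adjusted p 0.0489 from limma) and 7 did not pass. On array 3 the median of the lipid list was -0.23, against 0.03, 0.06 and 0.16 on arrays 1, 2 and 4.

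Of 18 cytoskeletal, signalling and carrier genes only Fyn passed, a Src-family kinase gene that fell (-0.24 ± 0.14, adjusted p 0.0379 from limma) and had every Ndrg2-/- level below every wild-type level. Median centring put it at 0.07. Among 18 regulators, Sox5, which encodes a factor that holds precursors back from maturing, fell (-0.27 ± 0.17, adjusted p 0.0371 from limma; 0.32 under median centring). Zfp488, an oligodendrocyte zinc finger gene, rose by its brightest probe (0.20 ± 0.12, adjusted p 0.0494 from limma), but its other probe was at -0.27. None of 10 precursor markers passed. The largest of them were Matn4 (-0.13 ± 0.17, adjusted p 0.203 from limma; 0.15 under median centring) and Pdgfra (0.12 ± 0.12, adjusted p 0.163 from limma).

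**Figure D5:**
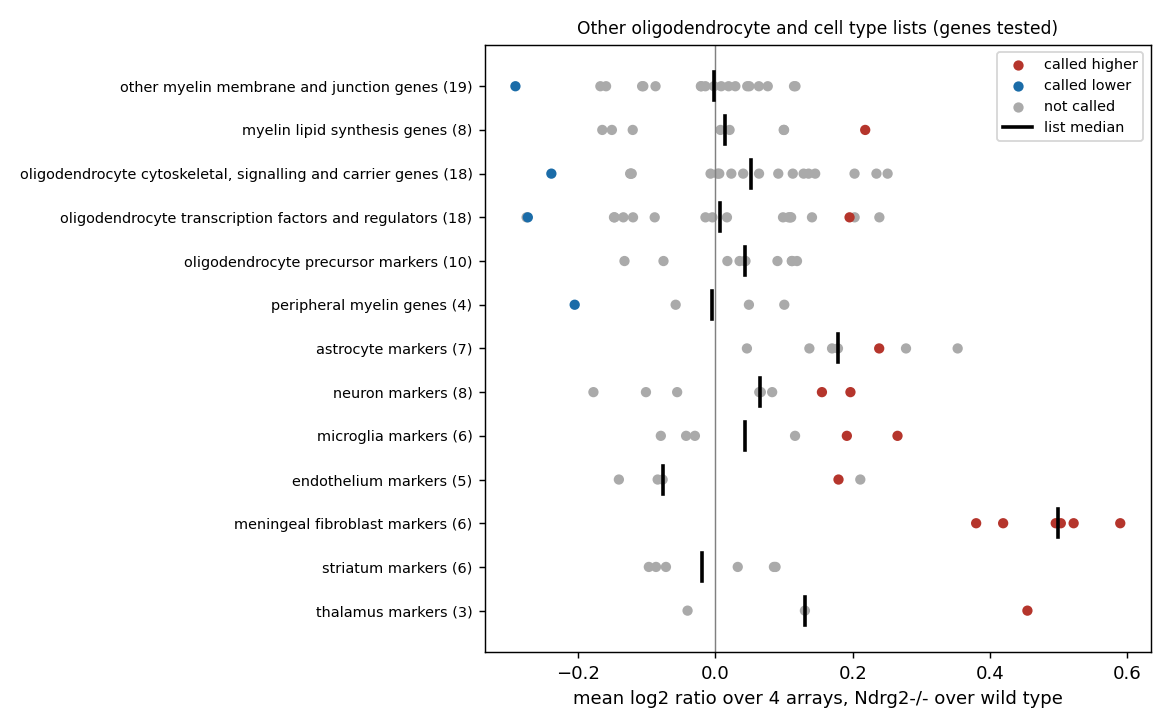
Mean log2 ratio of Ndrg2-/- over wild type (x axis) for each tested gene of 13 lists (rows, number of genes in parentheses). Points are genes, coloured where they passed the limma test, and the bar is the list median. The 5 oligodendrocyte lists at the top are centred near 0, with medians from -0.00 to 0.05, while all 6 meningeal markers lie to the right (median 0.50). The lists were chosen with earlier results of these data known.

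Markers of other cells were read in the same way, since Mbp is also made by the Schwann cells of peripheral nerve. Of 4 tested peripheral myelin genes, Ncmap, a gene of noncompact Schwann cell myelin, fell (-0.21 ± 0.07, adjusted p 0.0253 from limma) and 3 did not pass. A second Ncmap probe was at 0.01. Pmp2 was not well above background in either channel on all arrays. The summed linear level of the peripheral list ran from 1643 to 1789 in the samples labelled Ndrg2-/-, against 1602 to 1891 in the wild-type samples, so the groups overlapped.

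All 6 meningeal fibroblast markers rose, with a median of 0.50 and array medians of 0.64, 0.44, 0.26 and 0.64. Over all genes tested 9.12% passed as higher. The lists were chosen with earlier results of these data known, so nothing is read from the count of 6. The largest were Lum (0.59), Col1a1 (0.52), Dcn (0.50) and Col1a2 (0.50), matrix genes. The summed level of the list was 7052 to 11184 in the samples labelled Ndrg2-/-, against 4621 to 9454 in the wild-type samples. Meningeal markers and Mbp A_52_P604195 thus were both higher in those samples and the list median, like this Mbp probe, was lowest in ratio on array 3. The lowest ratio fell on array 3 for 10 of the 14 myelin probes, so this is not particular to that Mbp probe. Of the 6 markers, Lum was lowest on array 2 (0.43, against 0.63 on array 3) and Igf2 on array 4 (0.17, against 0.29 on array 3). Levels of this Mbp probe and of the markers ran differently over the samples. Ndrg2-/- sample 1 had the highest level of the Mbp probe in its group (13.09) but the lowest of every marker except Igf2. Wild-type sample 3 was the highest of its group for all 6 markers, while the Mbp probe was at 12.12 there and at 12.26 in sample 2. The part of meningeal tissue in the Mbp values was not tested.

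Of the remaining markers, 1 of 7 for astrocytes (Aldoc, 0.24) and 2 of 8 for neurons (Snap25, 0.20, and Rbfox3, 0.16) passed as higher. So did 2 of 6 for microglia (Tmem119, 0.27, and Cx3cr1, 0.19), 1 of 5 for endothelium (Pecam1, 0.18) and 1 of 3 for thalamus (Slc17a6, 0.45). None passed as lower, and over all genes tested 9.12% passed as higher. List medians were 0.18 for astrocytes, 0.06 for neurons, 0.04 for microglia, -0.08 for endothelium and 0.13 for thalamus. Of the neuron markers 2 were above 0 on all 4 arrays and 2 below (Syt1, -0.18, and Tubb3, -0.10). Of the endothelium markers 2 were above 0 on all 4 arrays and 1 below (Cldn5, -0.14). The other Rbfox3 probes lay between -0.11 and 0.15. All 7 astrocyte markers had mean ratios above 0 (0.05 to 0.35, with Gfap highest), and 5 were above 0 on all 4 arrays. The summed level of the astrocyte list was 177601 to 191461 in the samples labelled Ndrg2-/-, against 151376 to 165899 in the wild-type samples. These ranges did not overlap, but Aldoc had by far the highest level on that list. With the scanner software's processed signals Aldoc was at 0.0633 and Snap25 at 0.0943, and neither passed. Slc17a6 was at 0.29 without replicate 2, where it did not pass. None of 6 striatum markers passed, the largest being Drd1 (-0.10) and Adora2a (0.09). The summed level of the striatum list was 11226 to 12173 in the samples labelled Ndrg2-/-, against 11350 to 12586 in the wild-type samples. Of the named genes outside the myelin set that passed, each lost its pass under at least 1 alternative setting or left-out array, except Lum.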

How the data were processed

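Cortical RNA (200 ng per sample, per the labels' labelling protocol, which speaks of shoots) was measured on 4 dual-colour Agilent arrays. Images were extracted by the authors with Agilent Feature Extraction; the file headers give version 11.0.1.1, whereas the submitters' processing notes name 10.7.3.1. Spot intensity, per the file headers, was the median over pixels. The authors' software also wrote log10 ratios and processed signals, which per the file headers are background-subtracted and dye-normalized. The authors' deposited log2 table was set against that ratio of red over green (r 0.957 to 0.999 per array), with column medians of 0.04, 0.03, -0.04 and -0.04.

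Intensities were corrected by normexp (offset 50) and loess with 1377 control spots at weight 0 (R 4.3.3, limma 3.58.1). Over the 4 arrays 802 outlier spots were left out, none on a myelin probe, and spots of the same probe were averaged. The fit took 27652 of 39429 probes, those whose spots all exceeded background clearly in red or in green on each of the 4 arrays. Levels by channel used Aquantile normalization between arrays. An intercept-only limma fit (prior degrees of freedom 4.47) used Benjamini-Hochberg adjustment over all kept probes at 0.05. The ratio pairs samples of 1 array. Members, lists and tests were chosen with earlier results of these data known. Symbols came from a RefSeq table (GRCm38.p6), which named 27427 probes; array annotation is on mm9, so no gene coordinates are given. A gene was represented by its brightest probe. Named were all member probes, up to 4 passing genes per list (or 2 of any size) and the 5 genes of highest r. The fit was tested on simulated data. A result on a withheld item is not reported here.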

Additional observations from a re-analysis of the deposited data

Results flagged for a closer look

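One set of 4 values held a sample far from the others, out of 42 sets examined (ratios and levels of the 14 myelin probes). The log2 ratio of Mbp A_55_P1992160 was 0.63 on array 1, against 0.24, 0.27 and 0.29 on arrays 2 to 4. Chance alone gives such a gap in about 1 of 20 sets. Without array 1 the mean was 0.26 and the probe still passed.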

How the results depend on the processing

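Of 154 values of the 14 myelin probes under 11 alternatives, 129 kept their direction and side of the threshold. Without a change of sign 8 newly passed and 6 no longer passed, and 11 changed sign, whether they passed or not. Outside median centring these numbers were 126, 1, 6 and 7 of 140. Under median centring Mog, Mag and Ermn A_55_P2136752 changed sign and also passed as higher. The cause of the changes was not tested. Mbp A_52_P604195 passed under all 11 alternatives, but its high ratio had chosen the genes, so nothing is read from that. The alternatives are not independent: the deposited table repeated the processed signals, and the filter settings changed no myelin ratio.

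Processed signals and the deposited table gave the same values: 1145 probes called higher and 1039 lower over the array, 1 myelin probe called higher, 1 oligodendrocyte gene called higher and 1 lower, a gap between Mobp probes of 0.14, Mbp A_52_P329451 at -0.0147 and Cfap221 at -0.0901. With a normexp offset of 16, 0 oligodendrocyte genes were called higher and 0 lower, and Mbp A_52_P329451 was at -0.000723. With no filter on dim probes 0 of these genes were called higher. With no replicate block, the channels as 2 groups of 4, 632 probes were called higher and 331 lower over the array, 0 myelin probes were called lower, and 0 oligodendrocyte genes were called in either direction. The block is the array that both samples of a ratio share.

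Median centring without loess shifted the median of all probes to 0.22. It called 16452 probes higher and 5495 lower, 12 myelin probes higher and 0 lower, with a myelin median of 0.42, and 52 oligodendrocyte genes higher. The gap between probes was 0.31 for Mobp and 0.22 for Ermn. Signs turned for Mog (0.27), Mag (0.37), Ermn A_55_P2136752 (0.29), Mal (0.23), Fyn (0.0721), Sox5 (0.32), Matn4 (0.15), Drd1 (0.0169), Cfap221 (-0.27), Adamts4 (0.11) and Antxrl (-0.094).

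Leaving out 1 replicate gave 435 to 1384 probes called higher and 211 to 999 lower, 1 to 2 myelin probes higher and 0 to 1 lower, 0 to 4 oligodendrocyte genes higher and 0 to 4 lower, and a Mobp gap of 0.0307 to 0.13. The lowest and highest means were -0.0663 (without replicate 1) and 0.0863 for Mbp A_52_P329451, -0.0479 and 0.013 (without replicate 3) for Mog, and -0.108 and 0.0289 (without replicate 3) for Mag. Adora2a ranged from -0.0233 (without replicate 4) to 0.152. With 4 arrays of 1 dye orientation, their number limits the precision.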
